A study of Mus musculus with 6 samples.

Results

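The SMAD proteins and their feedback inhibitors were followed in C2C12 cells, a line of mouse myoblasts, with and without cyclic stretch. The 10 genes were taken by symbol (Smad1 to Smad7, Ski, Skil and Pmepa1) and are 10 of the 22375 rows of the table. RNA-seq covered 3 libraries of unstretched cells, the CON group, and 3 libraries of cells under 15% elongation for 4 h, the 4H group, all from the same line. For stretching, cells in serum-containing medium were seeded close to confluence on elastic plates coated with poly-lysine; how the CON cells were plated is not described. The labels call the replicates biosamples without saying whether they were separate cultures, so p values measure only the spread between these libraries.

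SMADs carry the signals of TGFβ, activin and BMP from the receptors to the nucleus. Activated receptors phosphorylate the receptor-regulated SMADs (R-SMADs) at their C-terminal end, Smad2 and Smad3 for TGFβ and activin, Smad1 and Smad5 for BMP. The phosphorylated R-SMAD joins the common SMAD, Smad4, and the complex binds DNA. Smad6 and Smad7, the inhibitory SMADs, block receptors and R-SMADs. Ski and its relative Skil (SnoN) are nuclear corepressors of SMAD complexes, and Pmepa1 is a membrane protein that holds R-SMADs away from the receptor. Transcription of Smad7, Skil and Pmepa1 is itself raised by TGFβ in many cells, which makes them negative feedback genes. In muscle, TGFβ signaling holds back myoblast differentiation and promotes fibrosis.

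The end of the coding sequence differs between the receptor-regulated Smad1, Smad3 and Smad5 and the inhibitory Smad6. Smad2 and Smad7 were not examined here. The last 30 coding bases before the stop codon are shown for the SMADs on chromosomes 8, 9 and 13 (GENCODE M21 transcripts, GRCm38), with the last 4 codons, the place of receptor phosphorylation, in capitals. They lie in the last exon of each transcript, at chr9:63650265-63650294 on the minus strand for Smad3 (exon 9 of 9), chr8:79339652-79339681 on the minus strand for Smad1 (exon 7 of 7), chr13:56737446-56737475 on the plus strand for Smad5 (exon 7 of 7) and chr9:63953527-63953556 on the minus strand for Smad6 (exon 4 of 4).
Smad3: tccccgagcatccgctgtTCCAGTGTGTCT
Smad1: tcaccccacaatcctattTCATCCGTGTCT
Smad5: tctccgctgaaccccattTCTTCTGTTTCA
Smad6: tggctggagatcctactcAACAACCACAGA
In Smad3, Smad1 and Smad5, 3 of the last 4 codons encode serine, and in Smad6 none (0 of 4) does.

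FPKM is a level per transcript length, normalized for the mapped fragments of a library, so it allows levels of different genes to be compared. All 10 genes passed the filter of a mean of 0.5 FPKM over the 6 libraries. The test was limma, run on log2(FPKM + 0.5) for the 11593 genes that passed this filter. "Rose" and "fell" are used below for an adjusted p (Benjamini-Hochberg) of at most 0.05, and differential expression is the study's stricter rule, which also requires a log2 fold change of 1 or more in either direction.

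After 4 h of stretch the feedback inhibitors Pmepa1, Smad7 and Skil rose most, to 2.26, 2.06 and 1.66 times their CON means. The R-SMADs Smad3 and Smad5 rose by less, and the common SMAD, Smad4, fell slightly. Smad1, Smad2, Smad6 and Ski did not pass the test. In all, 5 genes rose and 1 fell, which is 60.0% of the 10. The test was passed by 46.7% of all genes tested (22.6% rose and 24.1% fell), so nothing is read from the number that passed. Of the 10 genes, 2 were differentially expressed, Pmepa1 and Smad7, against 3.88% of all genes tested. In 6 of the 10 genes the groups did not overlap, against 56.7% of all genes tested. For groups without overlap, a two-sided exact permutation of the 6 libraries has p = 0.1 by construction, the smallest value possible with 3 a group. It adds nothing to the count of genes without overlap. The median log2 fold change of the 10 genes was 0.26, and that of all genes tested was -0.01. In bulk RNA, fewer cells of a type and less RNA per cell cannot be told apart.

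**Figure D1:**
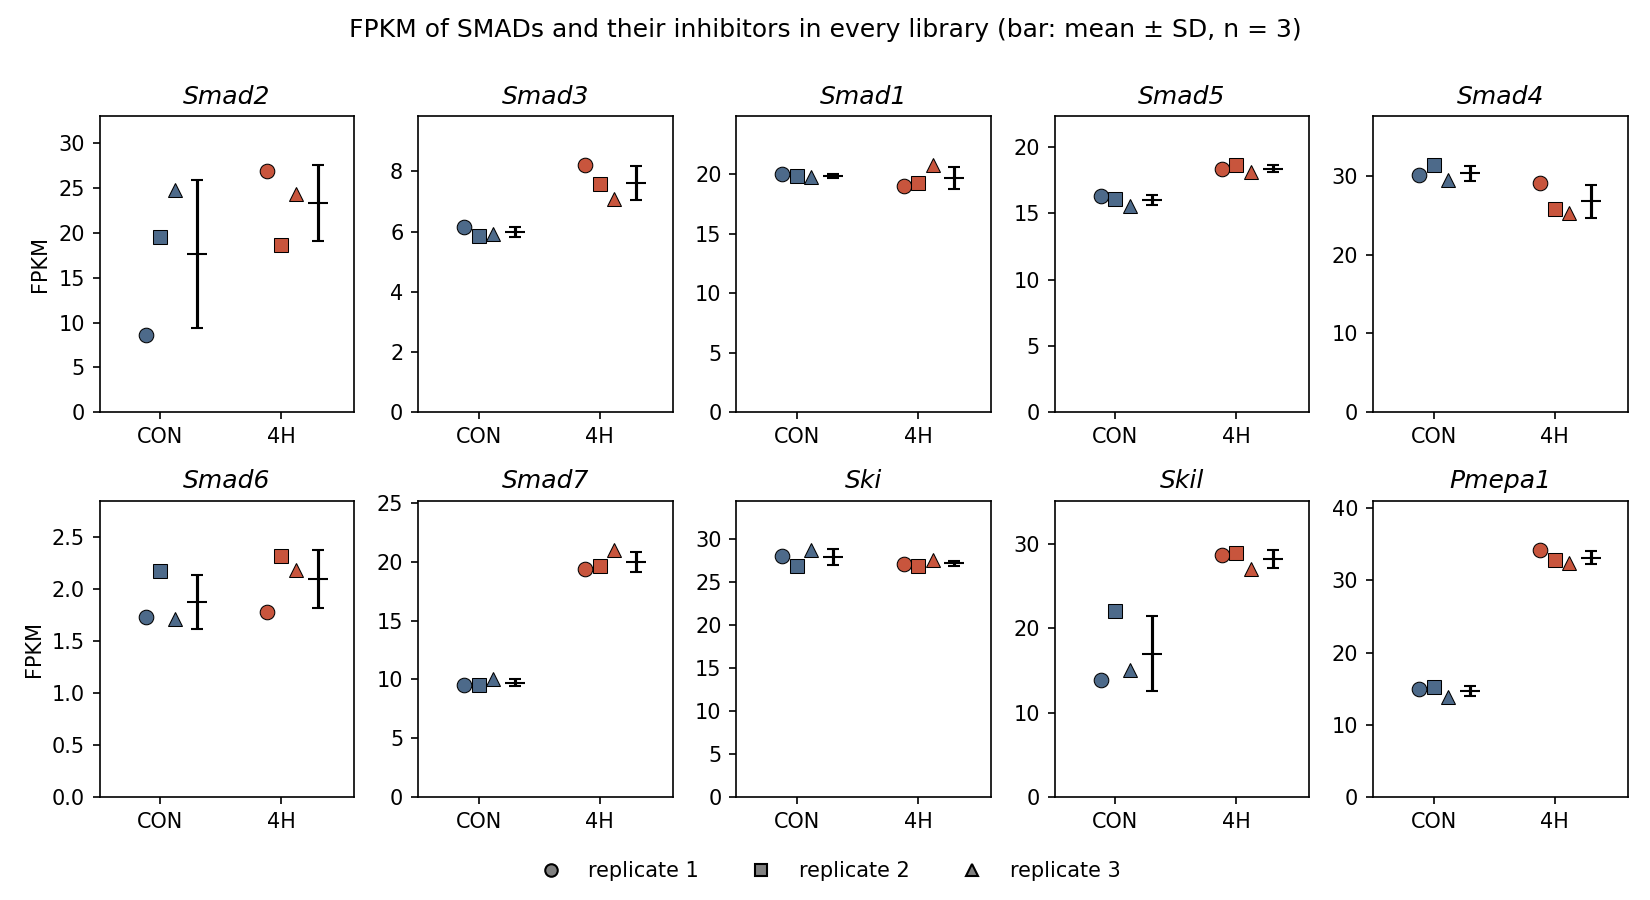
FPKM (vertical axis, from 0 in each panel) of the 10 genes in every library, with blue symbols for CON, red for 4H, a shape for each replicate number and a bar for the mean ± SD (n = 3). Pmepa1 lies at 32.4 FPKM or above in every 4H library and at 15.3 or below in every CON library, while the CON libraries of Smad2 spread from 8.64 to 24.8 FPKM.

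Among the TGFβ and activin R-SMADs, Smad3 (chr9:63646767-63757994, minus strand) was at 6.16, 5.86 and 5.92 FPKM in the CON libraries and at 8.20, 7.58 and 7.08 FPKM in the libraries of 4H. Every 4H library was above every CON library. The mean rose from 5.98 ± 0.16 to 7.62 ± 0.56 FPKM (SD, 3 libraries in each group). The log2 fold change was 0.32 (standard error 0.07, 95% interval 0.16 to 0.49, adjusted p = 0.00636 from limma).

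Smad2, the other R-SMAD of this branch, was at 8.64, 19.6 and 24.8 FPKM in the CON libraries and at 26.9, 18.6 and 24.4 FPKM in the libraries of 4H. CON replicate 1 was the lowest of the 6, and the remaining libraries of the groups overlapped. The means were 17.7 ± 8.23 and 23.3 ± 4.25 FPKM, and the log2 fold change of 0.50 had a 95% interval of -0.27 to 1.27 (adjusted p = 0.259 from limma), so neither a fall to 0.83 times nor a rise to 2.41 times the CON level lay outside it. With 1 library left out, the log2 fold change ran from 0.06 without CON replicate 1 (adjusted p = 0.781 from limma) to 0.80 without CON replicate 3 (adjusted p = 0.082). The spread of Smad2 within the groups, an SD of 0.58 on the log2 scale, was larger than that of 99.2% of all genes tested, where the median SD was 0.08. Smad2 (chr18:76241580-76310963 in GRCm38, plus strand) has 7 protein-coding transcripts in GENCODE M21, from 614 to 8089 bases long, and none of its 75-base stretches recurs in a transcript of another gene (0%). Whether the choice of transcript lengths moved with its FPKM was not tested.

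Of the R-SMADs of the BMP branch, 1 rose and 1 did not pass the test. Smad5 (chr13:56703010-56742377, plus strand) was at 16.3, 16.1 and 15.5 FPKM in the CON libraries and at 18.4, 18.6 and 18.1 FPKM in the libraries of 4H, with all 4H values above all CON values. It rose from 15.97 ± 0.39 to 18.4 ± 0.24 FPKM, a log2 fold change of 0.20 (standard error 0.04, 95% interval 0.10 to 0.29, adjusted p = 0.00637 from limma). The exons of Smad5 overlap those of 1 small gene on the same strand, Gm27301, and 0.344% of the 75-base stretches of Smad5 recur in that gene.

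Smad1 (chr8:79338395-79399518, minus strand) was at 20.1, 19.8 and 19.7 FPKM in the CON libraries and at 19.0, 19.3 and 20.8 FPKM in the libraries of 4H, and the groups overlapped. Its means were 19.9 ± 0.17 and 19.7 ± 0.93 FPKM, and the 95% interval of its log2 fold change, -0.12 to 0.09 around -0.01, leaves room for a change to between 0.919 and 1.07 times the CON level (adjusted p = 0.824 from limma). The sign of this difference turned with libraries rescaled to TPM, without 4H replicate 1 and without 4H replicate 2. Smad9, the remaining R-SMAD of the BMP branch and not one of the 10 genes, was low, at 1.03 ± 0.05 FPKM in CON and 1.61 ± 0.13 FPKM in 4H, and rose by 0.47 on the log2 scale (adjusted p = 0.00868 from limma).

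The common SMAD, Smad4 (chr18:73639009-73703780, minus strand), was at 30.1, 31.3 and 29.5 FPKM in the CON libraries and at 29.1, 25.8 and 25.3 FPKM in the libraries of 4H. The groups did not overlap, but 4H replicate 1 lay 0.337 FPKM below the lowest CON library. The mean went from 30.3 ± 0.94 to 26.7 ± 2.08 FPKM, a log2 fold change of -0.18 (standard error 0.06, 95% interval -0.31 to -0.05, adjusted p = 0.0353 from limma). The call was lost with libraries rescaled to TPM (adjusted p = 0.0873), without a filter on low values (0.0575), without a trend (0.0658) and when any library other than 4H replicate 1 was left out (0.0558 to 0.109). The log2 fold change stayed below 0 in all of these fits.

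**Figure D2:**
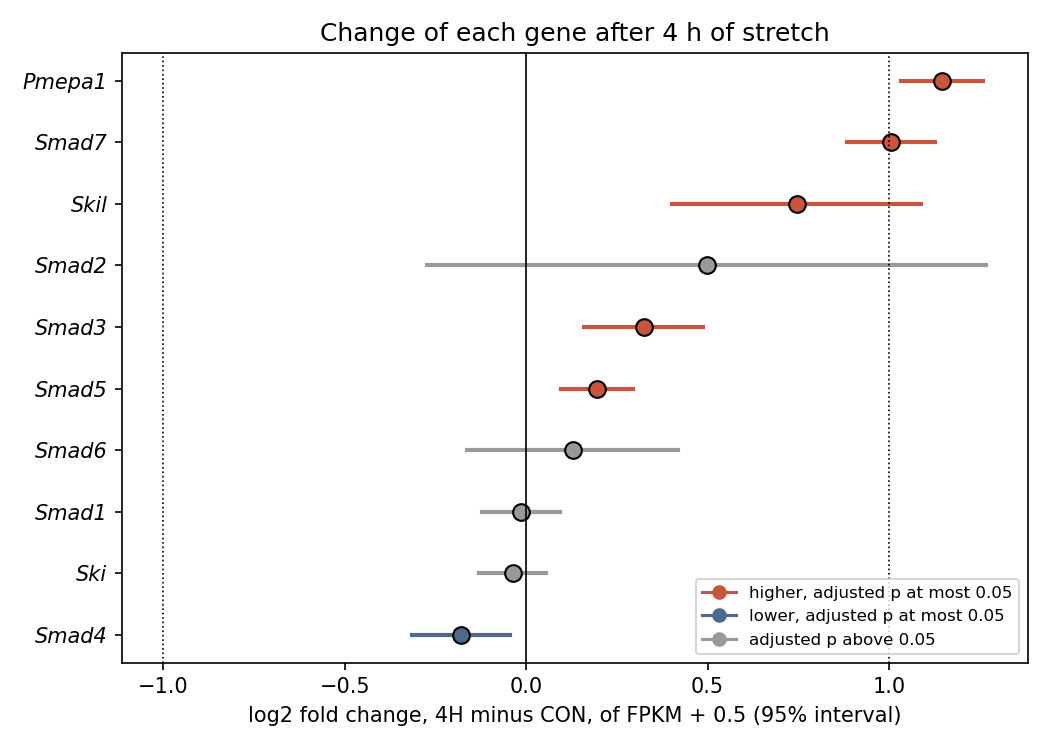
Log2 fold change of FPKM + 0.5, 4H minus CON (horizontal axis), for the 10 genes in order of size, with the 95% interval of limma as a line and dotted lines at -1 and 1. Red marks the 5 genes that rose, blue the 1 that fell and grey the 4 that did not pass the test, and the interval of Smad2 is the widest, from -0.27 to 1.27.

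Of the inhibitory SMADs, Smad7 (chr18:75367529-75395935, plus strand), which blocks TGFβ and BMP receptors and brings ubiquitin ligases to them, was at 9.54, 9.56 and 10.1 FPKM in the CON libraries and at 19.4, 19.7 and 21.01 FPKM in the libraries of 4H. The lowest 4H library lay 9.35 FPKM above the highest CON library. The mean rose from 9.72 ± 0.31 to 20.0 ± 0.85 FPKM, a log2 fold change of 1.01 (standard error 0.05, 95% interval 0.89 to 1.13, adjusted p = 2.56e-06 from limma). The rise was past an adjusted p of 0.05 under all 17 alternatives, while the threshold of 1 for differential expression lies inside its interval and was missed in 5 of them, at 0.97 with a pseudocount of 1.

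Smad6 (chr9:63953076-64022059, minus strand), which acts mainly on the BMP branch, was the lowest of the 10 genes, at 1.73, 2.18 and 1.72 FPKM in the CON libraries and at 1.78, 2.32 and 2.18 FPKM in the libraries of 4H. The groups overlapped, and 4H replicate 1 lay within the CON range. Its means were 1.88 ± 0.26 and 2.10 ± 0.28 FPKM, with a log2 fold change of 0.13 and a 95% interval of -0.16 to 0.42 (adjusted p = 0.442 from limma). The interval of Smad6 covers a change to between 0.893 and 1.34 times the CON level. Its log2 fold change ran from 0.06 without 4H replicate 2 and 0.08 without CON replicate 3 to 0.22 without CON replicate 2 or 4H replicate 1, was 0.03 with quantile normalization, and passed the test in none of these fits.

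The RefSeq table of promoters (GRCm38.p6, 250 bases before to 50 after the start site) was searched for 4 motifs on both strands: GTCTAGAC, the palindromic SMAD-binding element; CAGACA, which shares with it the letters AGAC of the shorter SMAD box; GGCGCC, a GC-rich element bound by SMAD1 and SMAD5; and TGAGTCA, the AP-1 site. Of all 32851 promoters, 0.213%, 21%, 11.9% and 5.2% hold them, in that order. Of the 10 genes, 5 have an entry off the chromosome of Smad2, Smad4 and Smad7, with 7 promoters in all: Smad1, Smad3, Smad5, Smad6 and Ski. GGCGCC is found in Ski and in 2 overlapping promoters of Smad5, and GTCTAGAC in Smad6. CAGACA and TGAGTCA are in none of them (0 of 7). Skil, Pmepa1 and Smad7 were not searched, so the tally does not cover the genes that rose most. The Smad6 promoter, chosen for display after this match was seen, is printed with the 8 matching bases in capitals (chr9:64022010-64022309, minus strand). They start 4 bases before the annotated start site and run across it, at chr9:64022056-64022063.
Smad6 promoter: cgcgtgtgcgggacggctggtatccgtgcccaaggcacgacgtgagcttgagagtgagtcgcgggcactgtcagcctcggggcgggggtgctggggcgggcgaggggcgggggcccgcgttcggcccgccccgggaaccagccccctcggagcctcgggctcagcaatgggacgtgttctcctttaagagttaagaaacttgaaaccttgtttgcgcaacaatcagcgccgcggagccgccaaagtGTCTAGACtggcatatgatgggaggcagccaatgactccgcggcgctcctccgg
A match of letters is a description of this window and not evidence of binding in these cells, in which the mRNA of Smad6 was low in both groups.

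Skil (chr3:31095058-31122577, plus strand), the corepressor known as SnoN, was at 13.8, 22.1 and 15.0 FPKM in the CON libraries and at 28.7, 28.9 and 27.0 FPKM in the libraries of 4H. CON replicate 2 stood above the other CON libraries, yet the lowest 4H library was 4.94 FPKM higher. The mean rose from 17.0 ± 4.45 to 28.2 ± 1.05 FPKM, a log2 fold change of 0.75 (standard error 0.15, 95% interval 0.40 to 1.09, adjusted p = 0.00406 from limma). The 3 CON libraries differed by up to 1.6 times and the 3 4H libraries by up to 1.07 times. Without CON replicate 2 the log2 fold change of Skil was 0.95 (adjusted p = 4.03e-05), and without CON replicate 1 it was 0.62 (adjusted p = 0.013).

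Ski (chr4:155154075-155222592, minus strand), the corepressor related to Skil, was at 28.0, 26.8 and 28.7 FPKM in the CON libraries and at 27.0, 26.9 and 27.5 FPKM in the libraries of 4H. The groups overlapped within a narrow range. Its means were 27.8 ± 0.92 and 27.1 ± 0.33 FPKM, and the 95% interval of the log2 fold change, -0.13 to 0.06 around -0.04, covers a change to between 0.915 and 1.04 times (adjusted p = 0.482 from limma). With 1 library left out, the log2 fold change of Ski ran from -0.063 without CON replicate 2 to -0.016 without CON replicate 3, and with TPM it was -0.0013.

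Pmepa1 (chr2:173224458-173276533, minus strand), the membrane adaptor that binds R-SMADs, was at 14.9, 15.3 and 13.9 FPKM in the CON libraries and at 34.2, 32.9 and 32.4 FPKM in the libraries of 4H. The gap between the groups, 17.1 FPKM, was wider than the whole CON level. The mean rose from 14.7 ± 0.71 to 33.2 ± 0.94 FPKM, a log2 fold change of 1.15 (standard error 0.05, 95% interval 1.03 to 1.26, adjusted p = 9.24e-07 from limma), and was differentially expressed under all 17 alternatives. Ldlrad4, which encodes a relative of Pmepa1 and belongs to the list of SMAD adaptors, rose from 2.52 ± 0.07 to 4.84 ± 0.35 FPKM (by 0.82 on the log2 scale, adjusted p = 9.78e-05 from limma). In Ldlrad4, 47.4% of the 75-base stretches recur in Fam210a, on the other strand. The libraries keep the strand, but whether it was used in counting is unknown, so reads of the pair may not have been separated.

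**Figure D3:**
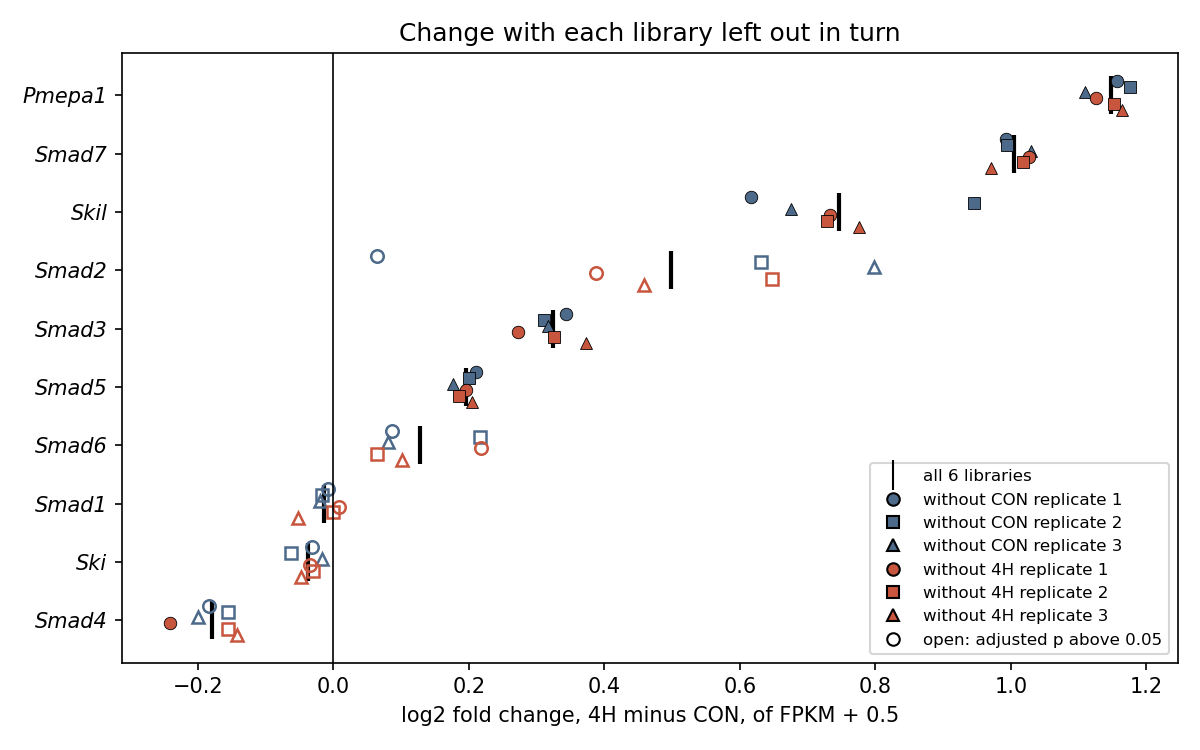
Log2 fold change of FPKM + 0.5, 4H minus CON, with all 6 libraries (black tick) and with each library left out in turn (blue for a CON library, red for a 4H library, the shape for its replicate number, open where the adjusted p was above 0.05). Smad2 moves from 0.50 to 0.06 without CON replicate 1 and to 0.80 without CON replicate 3, Skil from 0.75 to 0.95 without CON replicate 2, and Smad7 and Pmepa1 stay between 0.97 and 1.18.

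The order of the levels differed between the groups. By the means, in CON it ran Smad4, Ski, Smad1, Smad2, Skil, Smad5, Pmepa1, Smad7, Smad3 and Smad6, from 30.3 to 1.88 FPKM. The ranges over libraries overlapped between neighbours from Smad1 to Smad5 in this order, and were apart between the other neighbours. In 4H it ran Pmepa1, Skil, Ski, Smad4, Smad2, Smad7, Smad1, Smad5, Smad3 and Smad6, from 33.2 to 2.10 FPKM. Here Pmepa1 was apart from the next gene, the neighbours from Skil to Smad1 overlapped, and Smad5, Smad3 and Smad6 were each apart from their neighbours. By their means, Pmepa1 was seventh in CON and first in 4H, and Smad7 eighth and sixth. Genes further apart in the order overlapped too: in CON the range of Pmepa1, 13.9 to 15.3 FPKM, lay inside those of Smad2 and Skil, and in CON replicate 1 Smad2 was below Smad7.

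Within each library, the levels were also set against each other, as a description with no test. Smad6 and Smad7 together amounted to 0.22, 0.191 and 0.179 of the summed FPKM of Smad1, Smad2, Smad3 and Smad5 in the CON libraries and to 0.292, 0.343 and 0.33 in the 4H libraries. The variable Smad2 enters this sum, which was 51.2 to 66.0 FPKM in CON and 64.1 to 72.5 FPKM in 4H. Skil was at 0.493, 0.822 and 0.524 times the FPKM of Ski in the CON libraries and at 1.06, 1.08 and 0.982 times in the 4H libraries, so the corepressors were close to equal after stretch. Smad7 was at 4.39 to 5.87 times the FPKM of Smad6 in CON and at 8.46 to 10.9 times in 4H. Smad5 was at 0.788 to 0.812 times the FPKM of Smad1 in CON and at 0.873 to 0.965 times in 4H. The ratio of Smad2 and Smad3 to Smad1 and Smad5 overlapped between the groups, at 0.407 to 0.869 in CON and 0.692 to 0.938 in 4H.

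**Figure D4:**
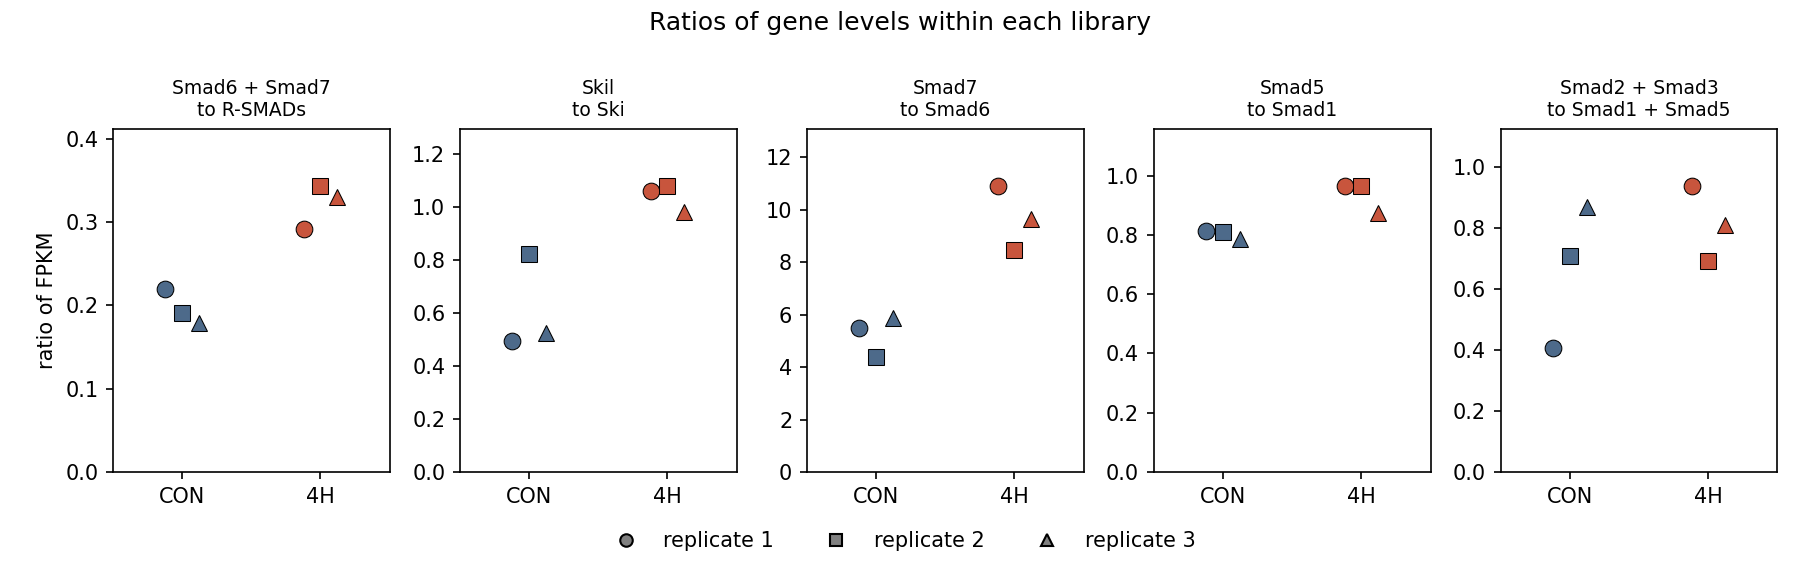
Ratios of FPKM within each library (vertical axes from 0), blue for CON and red for 4H, with a shape for each replicate number. The first 4 ratios do not overlap between the groups, and the last, which holds Smad2, runs from 0.407 to 0.869 in CON and from 0.692 to 0.938 in 4H.

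The other genes of the pathway were grouped in 6 lists, whose counts are to be read against the 46.7% of all genes tested that passed the test (22.6% rose and 24.1% fell). Of 14 receptors and coreceptors, 11 were tested, 4 rose and 1 fell (45.5% passed, against 46.7% of all genes), with a median log2 fold change of 0.06. Acvr1, a type I receptor of BMPs and activin, rose from 21.5 ± 0.54 to 32.0 ± 1.39 FPKM (0.56, adjusted p = 3.05e-05 from limma), and Bmpr1b from 2.88 ± 0.51 to 4.22 ± 0.44 FPKM (0.49, adjusted p = 0.0153). Tgfbr3, the coreceptor betaglycan, fell from 5.87 ± 0.25 to 4.54 ± 0.22 FPKM (-0.34, adjusted p = 0.00532).

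Of 15 ubiquitin ligases and deubiquitinases that act on SMADs or their receptors, 14 were tested, 4 rose and 4 fell (57.1% passed), and the median was -0.01. Usp9x, which removes ubiquitin from SMAD4, rose from 33.8 ± 0.32 to 45.2 ± 0.73 FPKM (0.41, adjusted p = 2.78e-05 from limma), and the ligase gene Nedd4l from 12.9 ± 1.08 to 16.4 ± 2.47 FPKM (0.34, adjusted p = 0.03). Usp11 fell from 8.21 ± 0.27 to 4.76 ± 0.25 FPKM (-0.73, adjusted p = 6.12e-05), and Trim33, a ligase for SMAD4, from 19.0 ± 0.88 to 15.9 ± 0.55 FPKM (-0.25, adjusted p = 0.00468).

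Of 14 SMAD adaptors and phosphatases, 13 were tested, 3 rose and 4 fell (53.8% passed), with a median of -0.05. Beside Ldlrad4, the adaptor Dab2 rose, from 32.7 ± 0.15 to 38.2 ± 1.28 FPKM (0.22, adjusted p = 0.0017 from limma). The falls included Ctdspl (-0.50, adjusted p = 0.000312) and Ctdsp2 (-0.35, adjusted p = 0.000478), small phosphatases that can act on R-SMADs. Ctdsp2 shares 9.81% of its 75-base stretches with other genes.

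Of 20 nuclear partners, 18 were tested, 8 rose and 3 fell (61.1% passed), with a median of 0.05. Runx1, a transcription factor that binds SMADs, rose from 14.4 ± 1.22 to 23.8 ± 0.73 FPKM (0.71, adjusted p = 5.77e-05 from limma), and Smad9 was next. Kat2a, an acetyltransferase, fell from 43.2 ± 1.56 to 36.3 ± 0.95 FPKM (-0.25, adjusted p = 0.00127), and the corepressor Sin3a from 19.0 ± 0.66 to 16.2 ± 1.11 FPKM (-0.22, adjusted p = 0.0155). None of the genes tested in these 4 lists was differentially expressed (0 in each).

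The lists of target genes had the largest medians of the 6. All lists were chosen with earlier results of these data known, so their shares and medians are descriptions only. Of 18 genes known to be induced through SMAD3 and SMAD4 and outside the 10, 15 were tested, 12 rose and 2 fell (93.3% passed, against 46.7% of all genes), with a median of 0.61, and 4 were differentially expressed, against 3.88% of all genes. Of these, 3 are named: Ccn2, a matricellular protein, which rose from 7.18 ± 0.71 to 48.1 ± 2.77 FPKM (2.66, adjusted p = 1.22e-07 from limma), Tagln, a smooth muscle actin-binding protein (1.22, adjusted p = 3.76e-06), and Timp1, an inhibitor of metalloproteinases (1.15, adjusted p = 2.09e-07). Ccn2 and Tagln share 14.6% and 53.3% of their 75-base stretches with genes on the other strand. Itgb5, an integrin subunit, fell (-0.60, adjusted p = 0.000114 from limma), as did the collagen gene Col1a2 (-0.41, adjusted p = 1.29e-05).

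Of 15 genes known to be induced through SMAD1 and SMAD5, 10 were tested, 7 rose and 1 fell (80% passed, against 46.7% of all genes), with a median of 0.60, which was 0.33 without a filter on low values. Id1 and Id2, inhibitors of myogenic transcription factors, were differentially expressed, at 30.5 ± 3.47 and 78.1 ± 10.2 FPKM for Id1 (1.34, adjusted p = 2.09e-05 from limma) and 19.0 ± 1.82 and 38.7 ± 1.77 FPKM for Id2 (1.01, adjusted p = 1.13e-05). Grem1, a secreted BMP antagonist, fell from 461.4 ± 5.64 to 312.5 ± 4.89 FPKM (-0.56, adjusted p = 1.08e-06). Smad9 and Runx2 are in this list and in that of the nuclear partners. Targets of both kinds respond to other pathways too, which were not separated here.

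**Figure D5:**
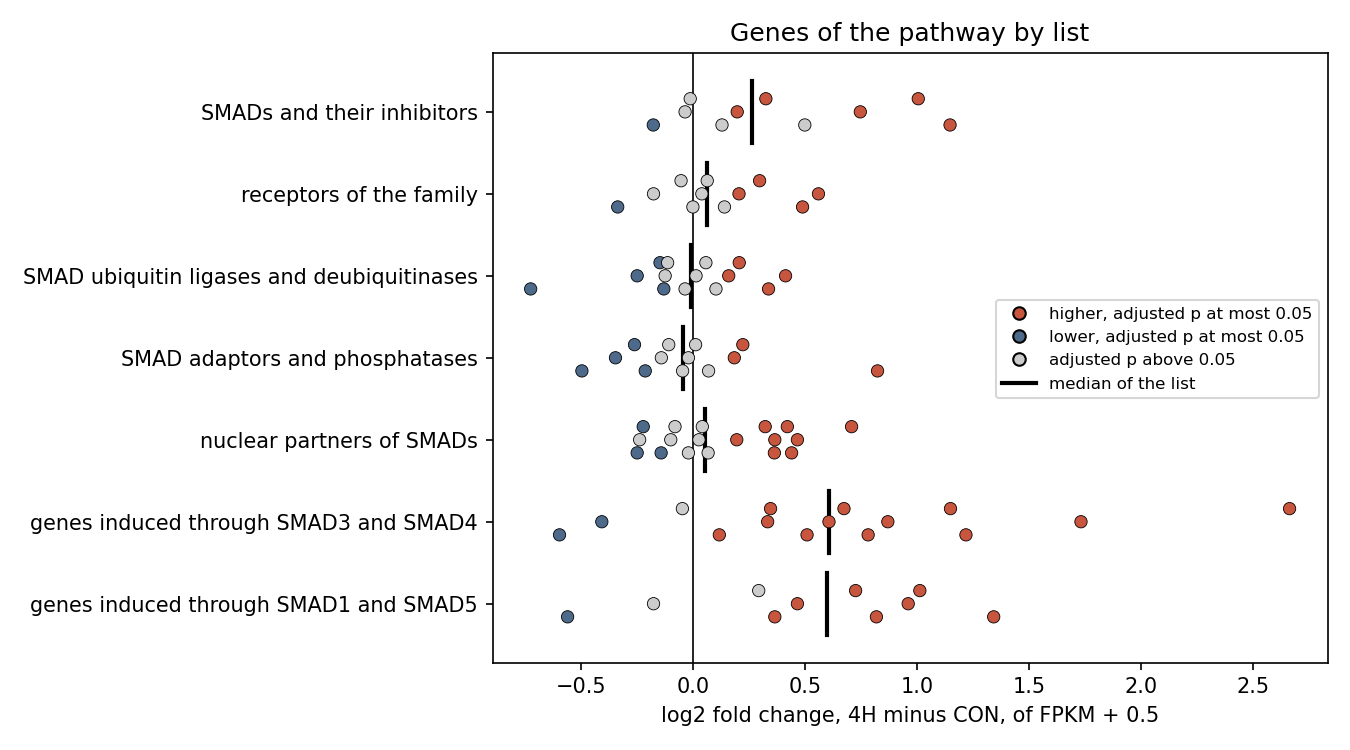
Log2 fold change of FPKM + 0.5, 4H minus CON (horizontal axis), of every tested gene of the SMADs and their inhibitors and of the 6 lists, with red for genes that rose, blue for genes that fell, grey for those that did not pass and a black tick for the median. The medians of the target lists are 0.61 and 0.60, those of the other 4 lists run from -0.05 to 0.06, and that of all genes tested is -0.01.

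As a description over the 6 libraries, each inhibitor was matched to the genes (mean of 5 FPKM or more) with the closest centred log2 profile. The closest to Smad7 were Col4a1, Cemip2 and Rnf19b, at distances of 0.08 on the log2 scale, and those to Pmepa1 were Aqp1, Fblim1 and Pkp2, at 0.11. Skil had no profile as close, with Lyn at 0.24, Hspa12a at 0.25 and Arsj at 0.31. Dus3l, Ddx51 and Nup37 lay closest to Ski, at 0.03, and Aunip, Mgp and Tmem263 to Smad6, at 0.09 to 0.11.

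The cells carried myoblast markers. Of 7 such markers 6 had a mean of at least 1 FPKM, and their sum was 175 to 180.0 FPKM in the CON libraries and 262 to 275 FPKM in the libraries of 4H. Of the 6 markers, all tested, 5 rose (Myod1, Des, Cdh15, Itga7 and Chrna1) and 1 fell (Myf5). Myod1 rose from 5.13 ± 0.57 to 18.2 ± 0.74 FPKM (adjusted p = 1.56e-06 from limma), and Myf5, the other early myogenic factor, fell from 15.8 ± 0.85 to 9.82 ± 1.13 FPKM (adjusted p = 0.000347). Itga7, an integrin subunit of muscle, and Des, the muscle intermediate filament desmin, made up most of the sum, with means of 55.9 and 71.6 FPKM in CON and 102.2 and 88.8 FPKM in 4H. Markers of differentiating muscle summed to 0.729 to 1.11 FPKM in CON and 1.25 to 1.81 FPKM in 4H. Among them Mymk rose (adjusted p = 0.0194 from limma), while Myog, under the filter, was at 0.281, 0.136 and 0.235 FPKM in CON and at 0.0794, 0 and 0 FPKM in 4H. The 4 leukocyte markers summed to 6.73 to 8.51 FPKM in CON and 15.0 to 17.6 FPKM in 4H, with Cd68 the 1 marker of 4 at a mean of 1 or more, while Ptprc and Adgre1 were listed at 0 in every library. The fibroblast markers summed to 3.74 to 4.19 FPKM and 6.0 to 7.63 FPKM, with Pdgfra and Dcn (2 of 4) at a mean of 1 or more. Endothelial markers summed to 0.101 to 0.122 FPKM in CON and 0.254 to 0.387 FPKM in 4H, epithelial markers to 0.0397 to 0.117 and 0.177 to 0.474 FPKM, and adipocyte markers to 0 and 0 to 0.137 FPKM, so that the sums were low throughout and higher in 4H without overlap for the endothelial and epithelial sets. Epcam, Plin1, Cidec and Mymx were listed at 0 in every library. The part of these shifts in the results above was not tested. Fragment numbers are not kept in FPKM. In 15 pairs of libraries, the commonest ratio between the values of genes under 0.1 FPKM, shared by 12 to 23 genes a pair, differed from 1 by at most 1.66%, a rough estimate of relative depth that was not tested against chance.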

How the data were processed

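RNA-seq of C2C12 myoblasts (3 CON and 3 4H libraries) was analysed. FPKM values were deposited by the authors as 1 table for all libraries, from strand-specific poly(A) libraries read as 150 bp paired ends. The submitters' processing notes name the genome build mm10, while for the aligner, the assembler, the counting tool and the annotation the entry is: not given in the sources used here. Groups came from the treatment given in the labels. The 4H libraries titled 4H1, 4H3 and 4H4 are 4H replicates 1, 2 and 3.

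DESeq2, used in the study, needs counts and was not run. limma 3.58.1 (R 4.3.3; lmFit, eBayes with a trend) was applied to log2(FPKM + 0.5) for the 11593 genes whose mean reached 0.5 FPKM, two-sided, with Benjamini-Hochberg adjustment over all of them. This scale understates the change of low genes. The step was tested on simulated data. The members and lists were chosen with earlier results of these data known. In each list the 2 largest rises and 2 largest falls past the test, and all differentially expressed genes, are named, except 1 that is not reported here. Runx2 and single markers were picked with their values in view, outside this rule. Symbols and transcripts came from GENCODE M21 (GRCm38, the assembly of mm10) and promoters from RefSeq (GRCm38.p6). The alternatives were pseudocounts of 0.1 and 1, quantile normalization, TPM rescaling, median-of-ratios scaling, filters of 1 and 5 FPKM or none, array weights, no trend, a replicate block and each library left out in turn. Plots were made with matplotlib 3.10.9 in Python 3.11.15.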

Additional observations from a re-analysis of the deposited data

How the results depend on the processing

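Of the 10 genes, Smad4 was the 1 whose adjusted p crossed 0.05 under the 17 alternatives (16 for Smad6). The fall of Smad4 was -0.179 without a filter, -0.179 without a trend and -0.145 with libraries rescaled to TPM, none of them past an adjusted p of 0.05, and -0.241 to -0.142 with 1 library left out, past it only without 4H replicate 1. The cause was not tested. The sign of Smad1 turned with TPM (0.021) and with 4H replicate 1 or 2 left out (range over the 6 libraries -0.052 to 0.009), at adjusted p values of 0.748 to 0.998. The number of differentially expressed genes among the 10 was 1 with a pseudocount of 1 and with array weights, and 1 to 2 with 1 library left out, since Smad7 lies at the threshold (0.97 to 1.03). Smad6 could not be tested with a filter at 5 FPKM. Of 102 list medians under the alternatives, 81 moved by less than the spread between libraries. The median of the receptor list, 0.062, was -0.001 with quantile normalization and 0.157 with TPM. With 1 library left out it ran from 0.041 without CON replicate 1 to 0.102 without 4H replicate 1. The median of the ubiquitin ligases and deubiquitinases, -0.013, was 0.012 without a filter, 0.048 with TPM and 0.0 without CON replicate 3. It was -0.03 without CON replicate 1 and -0.021 without 4H replicate 2. The median of the nuclear partners, 0.053, was 0.019 without 4H replicate 1, 0.084 without CON replicate 2 or 4H replicate 3 and 0.09 with TPM. That of the adaptors and phosphatases, -0.048, was -0.079 without a filter and with a filter at 5 FPKM. The medians of the target lists moved too. For SMAD3 and SMAD4 targets the median, 0.606, was 0.508 without a filter, 0.664 with TPM and 0.566 without CON replicate 1. For SMAD1 and SMAD5 targets the median, 0.595, was 0.333 without a filter and 0.725 with a filter at 5 FPKM. It was 0.665 and 0.486 with pseudocounts of 0.1 and 1, 0.556 with TPM, 0.52 with quantile normalization and 0.623 without 4H replicate 3. Whether the libraries were paired is not known. Replicate numbers here follow the order of the titles, and same-numbered deviations correlated at -0.126 to 0.025. By title, CON replicate 3 and 4H replicate 2 share the number 3, and they correlated at 0.176, the largest value of any such pair. The replicate block used the numbers given here, so it did not join these libraries. With this block the same number of the 10 genes, 6, passed, Pmepa1 at an adjusted p of 3.11e-05 from limma. Of all genes, 4964 passed in place of 5409. Of all genes, 245 were differentially expressed with a filter at 5 FPKM and 703 with TPM, in place of 450. Counting error cannot be given from FPKM, and precision rests on 3 libraries a group.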
